A study of Mus musculus with 2 samples.

Results

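Cardiomyocytes, the contractile cells of the heart tube, were taken from both sorted fractions of chimeric mouse embryos by their transcripts. A cell was kept if Myl7, Myl4, Tnnt2 and Actc1 together made up at least 0.3% of its spliced UMIs (unique molecular identifiers, each standing for 1 captured transcript), if it held at least 3 Tnnt2 UMIs, and if the embryonic globins Hba-x, Hbb-bh1 and Hbb-y stayed below 0.5%. Of 18233 cells with deposited counts, 658 met the rule, 404 of 8981 in the tdTom+ fraction and 254 of 9252 in the tdTom- fraction. The paper reports fewer cells in each fraction after quality control and cell type assignment. The cells were thus chosen by the measured levels of these 7 genes, and what those genes show is a description.

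The study used chimeras to follow Gata1-deficient cells beside normal cells in the same embryos. The tdTom+ cells descended from a single tdTomato-expressing mouse stem cell clone in which Cas9 had left a 38 bp frameshift in exon 4 of Gata1, the gene of an erythroid transcription factor. Its parent line was male and came from a cross of a tdTomato reporter male with a wild-type C57BL/6 female. The clone was injected into C57BL/6 blastocysts at E3.5, and the tdTom- cells were the unlabelled wild-type host cells. Whole embryos, 6 in all, were pooled, sorted on tdTomato and run as 1 droplet library per fraction. The stage labels read E8.5 for the tdTom+ and E8.6 for the tdTom- library, although the titles of both and the methods give E8.5 and both were sorted from the same pool. With 1 library per fraction there was no replicate and no test between fractions. Values below are UMIs summed over cells or CPM (counts normalised to the summed spliced UMIs of the same cells). Intervals are exact 95% intervals (binomial for shares, conditional on the summed UMIs for log2 folds), except that differences of log2 folds carry Wald 95% intervals. Each interval covers counting error only and is narrower than the spread between cells. Gata1 loss, the origin from a stem cell line, its sex and the library itself all differ between the fractions, and strain may differ. These cannot be told apart.

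The heart is the first organ to function in the embryo. Cells of the cardiac crescent and, later, of the second heart field switch on cardiac transcription factors such as Nkx2-5, Gata4 and Tbx5 and then build sarcomeres, in which myosin thick filaments pull on actin thin filaments along the titin scaffold. As the tube loops, its wall splits into chamber myocardium, which makes natriuretic peptides and ventricular myosin light chains, and inflow, atrioventricular and outflow myocardium with programs of their own.

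Summed over the cells of each fraction, markers outside the rule bore out the label. Ttn, the giant scaffold protein of the sarcomere, reached 2622 CPM in the tdTom+ and 3736 CPM in the tdTom- cardiomyocytes, against 5.10 and 4.71 CPM in the other non-blood cells (7314 tdTom+ and 7210 tdTom- cells under the same globin limit). Myh6, the alpha myosin heavy chain, was at 729 and 837 CPM against 1.43 and 1.27 CPM. The other non-blood cells were set apart from blood by globin alone. They held 269 and 314 Gata1 UMIs, so blood cells with little globin can be among them. The endothelial and endocardial list summed to 39.8 CPM for tdTom+ and 37.9 CPM for tdTom- cardiomyocytes, with 0 of its 8 genes at 0 UMIs in tdTom+ and 2 in tdTom-. The neural list summed to 36.5 and 57.0 CPM, and the endoderm list to 25.8 and 45.2 CPM. Each of these sums was below that of the other non-blood cells of the same fraction, as were those of the erythroid (24.999 and 55.6 CPM), neural crest (5.94 and 8.74 CPM) and somite lists (8.70 and 28.4 CPM). The proepicardial list summed to 12.4 CPM against 12.6 CPM of the other cells in tdTom+, and to 20.9 against 13.0 CPM in tdTom-, where it was the higher.

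The contractile share, meaning the percent of UMIs on the 4 rule genes, ran from 0.307% to 10.1% in tdTom+ and from 0.3002% to 9.97% in tdTom- cardiomyocytes, with medians of 2.64% and 3.69%. It lay under 1% in 109 tdTom+ and 60 tdTom- cells, between 1% and 3% in 104 and 48 cells, and at 3% or more in 191 and 146 cells. Just inside the limit lay shares of 0.307%, 0.309% and 0.310% in tdTom+, and just outside 0.288%, 0.284% and 0.283%. In tdTom- the nearest shares were 0.3002%, 0.310% and 0.326% inside and 0.279%, 0.278% and 0.277% outside. There was thus no gap at the limit. The globin limit alone left out 9 tdTom+ and 12 tdTom- cells, and the Tnnt2 limit alone 2 and 5.

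**Figure D1:**
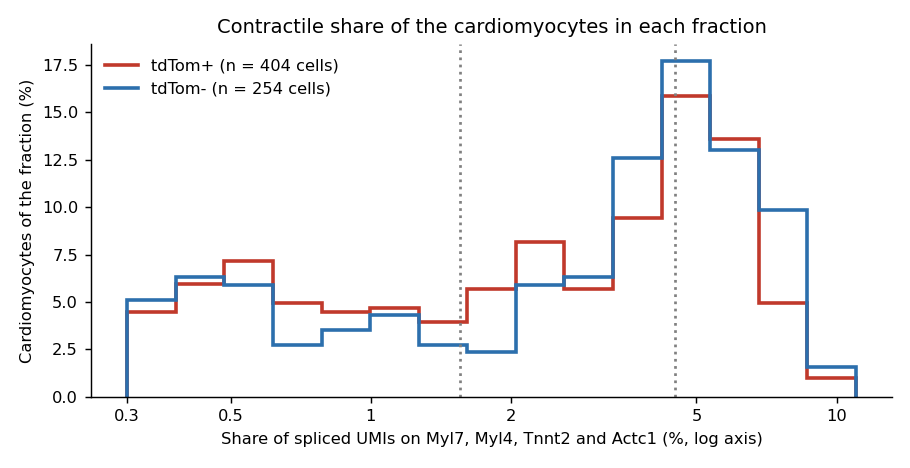
Histogram of the contractile share (x axis, percent of spliced UMIs, log axis) against the percent of cardiomyocytes of each fraction (y axis), with tdTom+ in red and tdTom- in blue. Dotted lines mark the cuts at 1.55% and 4.50% between the low, middle and high groups used below. Both fractions peak near 5%, and the tdTom- cells have more of their number above 4.50% (38.6% against 30.2%).

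Depth and quality were close between the fractions. Cardiomyocytes held a median of 16538 spliced UMIs in tdTom+ and 15375 in tdTom-, and 7240218 and 4119243 spliced UMIs in all. The median mitochondrial percent was 2.18% and 2.29%. The libraries shared 18 cell barcodes, of which 2 belonged to a cardiomyocyte in 1 of the libraries and 0 to one in both. Scrublet, a doublet caller, marked 21 tdTom+ (5.20%) and 8 tdTom- (3.15%) cardiomyocytes, which were kept. All of them were below a contractile share of 4.50%. Xist, the RNA of the inactive X chromosome, was found in 1 of 404 tdTom+ cells and 147 of 254 tdTom- cells. That 1 tdTom+ cell held 16 Xist UMIs and 54 of the 121 Cdkn1c UMIs of its fraction, a gene described below as nearly lacking there. The tdTom- cells came from embryos of both sexes, with 84 holding Y-linked but no Xist UMIs and 133 the reverse.

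Gata1 could not serve as a check in these cells. It had 4 spliced UMIs in each fraction, and 7 tdTom+ against 0 tdTom- unspliced UMIs. In the cells at or above the globin limit its level was 29.1 CPM for tdTom+ and 119 CPM for tdTom-. Unspliced UMIs of Gata1 there went in the opposite direction, with 1171 against 370. A frameshift need not remove a transcript. A few UMIs of blood-related genes were found in tdTom+ cardiomyocytes. Spi1, a myeloid transcription factor, had 30 UMIs in 9 tdTom+ cells against 0 in tdTom-, which makes it at least 5.69-fold higher when tdTom- is set to 3 counts in all. Tal1, a factor of blood and endothelium, had 61 UMIs against 5. Lmo2, a partner of Tal1, had 229 against 73. Zfpm1, the GATA cofactor, was near level with a log2 fold of 0.08 (-0.14 to 0.30). After thinning each cell to 5000 UMIs, Spi1 was in 0.754% of tdTom+ cardiomyocytes and in 0.978% of tdTom+ cells with neural markers, and Tal1 in 2.26% and 3.13%, so these shares were no higher than in the neural cells. The UMIs lay in few cells, with all 30 of Spi1 in 9 cells and 73.8% of those of Tal1 in 10, and their source was not tested. In all 15 tdTom+ and 2 tdTom- cardiomyocytes held at least 2 UMIs of Spi1, Tal1, Cdh5, Pecam1 or Gata1. The 15 tdTom+ cells had a median of 38916 UMIs, and Scrublet marked 8 of them. Leaving out all 17 such cells gave 12 higher and 40 lower genes in place of the 16 and 39 given below.

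Cardiomyocytes made up 4.50% of tdTom+ cells (interval 4.08% to 4.95%) and 2.75% of tdTom- cells (2.42% to 3.10%). Cells at or above the globin limit were fewer in tdTom+, with 1263 against 1788. Blood cells with little globin can fall below that limit. Among the cells below it the shares were 5.23% (4.75% to 5.76%) and 3.40% (3.003% to 3.84%), so the tdTom+ share was the larger on both denominators. How much each of the 6 embryos gave to either pool is unknown, and its part in the shares was not tested.

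The fractions differed little across the transcriptome. Of 7460 genes with at least 100 UMIs over both fractions, 16 (0.214%) were at least 2-fold higher in tdTom+ with an interval that excluded 0, and 39 (0.523%) at least 2-fold lower, 0.737% in either direction. The median log2 fold of tdTom+ over tdTom- was -0.03. The 39 lower genes held 4 genes of the imprinted list, 14 genes from 1 stretch of chromosome 3, 3 globins and Xist. The rest included Nppa, Osr1, Nppb and Nr2f1, the 4 genes called lower on the lists of cardiac regions and secreted factors. The higher genes held Barx1 and Lhx1, both homeobox genes, 3 genes of the imprinted list and the Y-linked Ddx3y and Eif2s3y.

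The transcription factors that specify heart muscle had small differences. Of the 17 measured genes of this list 1 had an interval below 0 and 4 above it, beside 14.8% and 11.9% of all genes. Their median log2 fold was -0.01, and none was called, where 0.737% of all genes were. Nkx2-5, the homeobox factor that marks cardiac progenitors and myocardium, had 358 CPM against 361 CPM (log2 fold -0.01, -0.11 to 0.08). Tbx20 was at 114 CPM in both, and Myocd, the co-activator of serum response factor, at 134 and 128 CPM. The GATA factors of the heart showed no common direction. Gata4 had a log2 fold of -0.06 (-0.25 to 0.12), Gata5 of 0.06 (-0.09 to 0.22) and Gata6 of 0.15 (0.03 to 0.26). Hand2, a factor of the second heart field and right ventricle, was at 108 against 84.5 CPM (0.36, 0.17 to 0.54), while Hand1 was at 99.9 against 105 CPM (-0.08, -0.25 to 0.10).

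Summed over all cells, sarcomere genes were lower in tdTom+ as a group, mostly by less than 2-fold. The rule chose the cells by genes of the same structure, and the contractile share was itself lower in tdTom+ (median 2.64% against 3.69%). The part of that share in the sums was not tested. In the low group of that share, described below, the median log2 fold of these genes was 0.31. Of 31 measured genes of the thick filament, thin filament and titin lists that the rule did not use, 27 had an interval below 0 and 1 above it, with a median log2 fold of -0.33 and a range from -0.91 to 0.10. Among all 7460 genes 14.8% had an interval below 0. None of the 31 was called, against the background of 0.523%. Ttn had a log2 fold of -0.51 (-0.54 to -0.48), Myl3, an essential light chain, of -0.60 (-0.64 to -0.56), and Myh7, the beta myosin heavy chain, of -0.56 (-0.64 to -0.49). Acta1, the skeletal alpha-actin that early heart muscle also makes, was at 665 against 1205 CPM (-0.86, -0.91 to -0.80). Its coding sequence is close to that of Actc1, so reads could be split between them. Tnnt1, the slow skeletal troponin T, was at 45.6 against 85.5 CPM. Tropomyosin Tpm1 stood near level at 7417 against 7899 CPM, and Tpm4 was the 1 gene with an interval above 0 (0.10, 0.02 to 0.19). The rule genes themselves had log2 folds of -0.15 for Myl7, -0.24 for Myl4, -0.14 for Tnnt2 and -0.40 for Actc1, given as a description because they chose the cells.

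Genes that couple excitation to contraction were mostly lower in tdTom+ in the sums over all cells, by less than 2-fold. The part of the lower contractile share of tdTom+ in these sums was not tested either. The counts that follow stand beside 14.8% of all genes with an interval below 0 and 11.9% with one above. Of 11 measured calcium-handling genes 8 had an interval below 0 and 0 above it, with a median log2 fold of -0.36. Atp2a2, the calcium pump of the sarcoplasmic reticulum, was at 334 against 430 CPM (-0.36, -0.45 to -0.27), and Trdn, the triadin that anchors calcium release, at 21.1 against 42.2 CPM (-0.999, -1.32 to -0.68), just short of the 2-fold limit. Pln, the inhibitor of that pump, fell below the 100 UMI minimum with 27 and 44 UMIs. Of the 6 measured channel and junction genes 4 had an interval below 0. Hcn4, the pacemaker channel, was at 34.5 against 43.7 CPM (-0.34, -0.62 to -0.06). Of the 17 measured genes of energy metabolism 9 had an interval below 0 and 2 above it. Ckb, the brain-type creatine kinase, was the lowest of them at 428 against 793 CPM (-0.89, -0.96 to -0.82), and it was as low in the other non-blood cells (-0.91). Slc2a3, a glucose transporter, was at 91.6 against 156 CPM. Ldha, a glycolytic enzyme, was at 4100 and 4058 CPM. Of the 7 measured smooth and skeletal muscle genes 5 had an interval below 0, among them Acta2 at 4476 against 6013 CPM and Tagln at 930 against 1300 CPM.

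**Figure D2:**
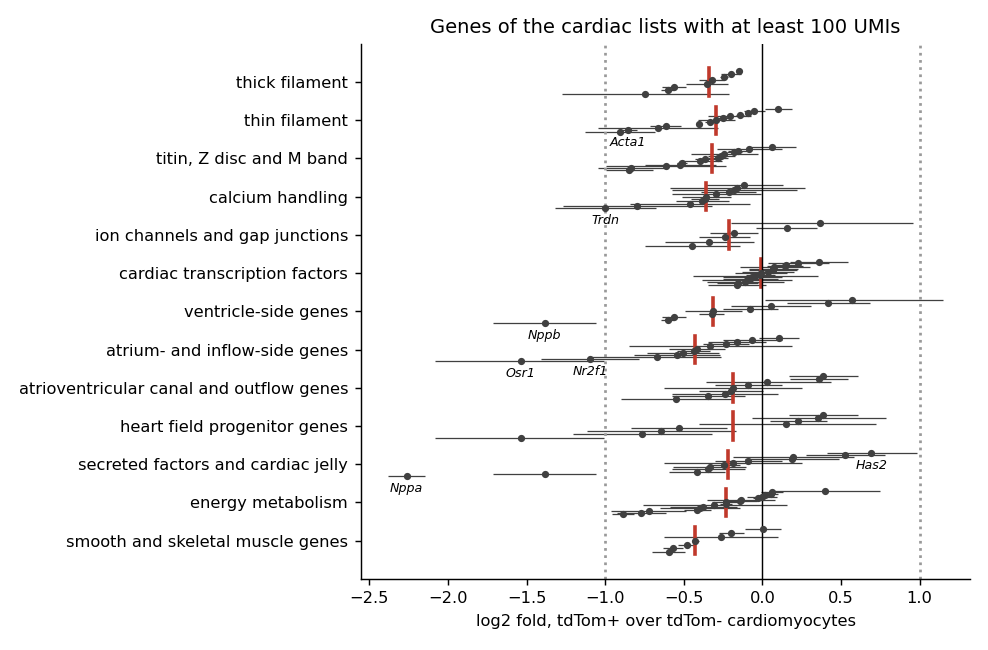
Log2 fold of tdTom+ over tdTom- cardiomyocytes (x axis) for each gene with at least 100 UMIs, by cardiac list (y axis). Points are genes, bars exact 95% counting intervals, red ticks list medians, and dotted lines the 2-fold limits. Cardiac transcription factors centre on -0.01, the 3 sarcomere lists on -0.34, -0.29 and -0.32, and Nppa stands alone at -2.26.

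As a description of the cells by their contractile share, they were split at 1.55% and 4.50% into low, middle and high groups of 142, 140 and 122 tdTom+ cells and 77, 79 and 98 tdTom- cells. The direction was not the same in all of them. In the low group the 31 sarcomere genes had a median log2 fold of 0.31, with 12 intervals above 0 and 2 below. In the middle group the median was -0.13, with 2 above and 13 below, and in the high group -0.20, with 1 above and 21 below. The calcium, energy and smooth muscle lists also had medians above 0 in the low group (0.16, 0.04 and 0.16) and below it in the high group (-0.28, -0.14 and -0.36). Myh6 moved from 81.6 against 31.2 CPM in the low group to 1556 against 1602 CPM in the high group. The 7 thick filament genes outside the rule summed to 442 against 280 CPM in the low and 6856 against 8666 CPM in the high group. The low group thus has the weakest support for the label of cardiomyocytes. Ankrd1, a stress-responsive protein of the Z disc and I band, moved from 219 against 64.0 CPM to 2110 against 2429 CPM. Ttn was below its tdTom- level in each group, with log2 folds of -0.25, -0.31 and -0.41, and Acta1 with -0.15, -0.60 and -0.61. Since the groups were cut on the rule genes, that sarcomere genes climb with the share within a fraction is a property of the split. The folds within the groups, here and in later paragraphs, are likewise a description of cells sorted by the values that chose them and support no comparison of the fractions.

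The same split ordered the genes of cardiac regions in both fractions. Isl1, a factor of second heart field progenitors, went from 150 CPM in the low to 7.63 CPM in the high group of tdTom+ and from 135 to 9.55 CPM in tdTom-. Foxf1, a splanchnic mesoderm factor, went from 44.9 to 1.91 CPM and from 48.4 to 1.27 CPM. Sfrp5, a secreted Wnt inhibitor of the inflow region, went from 224 to 39.6 CPM and from 350 to 35.02 CPM. Tbx5 and Gata4 differed little between its ends, with log2 folds of the high over the low group of 0.15 and 0.02 in tdTom+ and 0.06 and -0.21 in tdTom-. Mki67, a proliferation marker, went from 193 to 120 CPM and from 207 to 93.0 CPM.

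**Figure D3:**
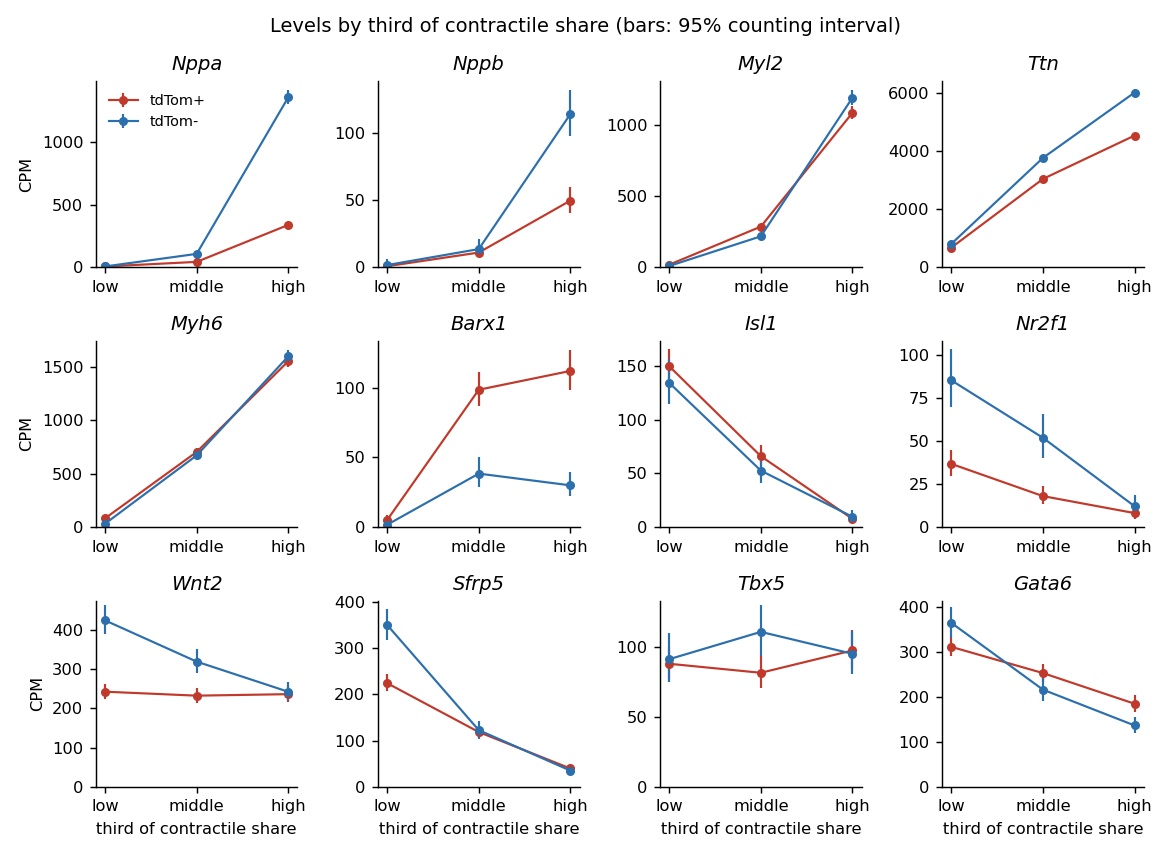
CPM (y axes, starting at 0) of 12 genes in the low, middle and high groups of contractile share (x axes), tdTom+ in red and tdTom- in blue, with 95% counting intervals. Nppa and Barx1 part from the middle group on, Nppa furthest in the high group, Nppb in the high group, and Nr2f1, Wnt2 and Sfrp5 in the low group. The Myh6 and Myl2 lines lie close on the scale of their axes.

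Nppa, which encodes atrial natriuretic peptide, a hormone of chamber myocardium, was the cardiac gene furthest apart. Its 834 UMIs in tdTom+ and 2278 in tdTom- came to 115 and 553 CPM (log2 fold -2.26, -2.38 to -2.15). Few cells carried it. It was seen in 70 of 404 tdTom+ cells and 71 of 254 tdTom- cells, and the 10 richest cells held 73.3% and 61.3% of its UMIs, so a few cells carry the value. Without those 10 cells in each fraction the levels were 31.7 and 227 CPM (-2.84). After thinning each cell to 5000 UMIs, 39 of 398 tdTom+ cells (9.80%, 7.06% to 13.2%) and 49 of 247 tdTom- cells (19.8%, 15.1% to 25.4%) held it, against 0.2% of cells with neural markers in each. Among cells with at least 2 Nppa UMIs the median was 5 UMIs in 52 tdTom+ cells and 18 UMIs in 49 tdTom- cells. Both the share of cells with Nppa and the number of its transcripts in them were thus lower in tdTom+.

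By group of contractile share Nppa was furthest apart in the high group. In the low group the levels were 6.19 and 6.56 CPM, in the middle group 43.0 and 107 CPM, and in the high group 338 and 1355 CPM. The mean of the log2 folds within the groups was -1.13, a smaller gap than in the sums over all cells. Of the 52 tdTom+ and 49 tdTom- cells with at least 2 Nppa UMIs, 49 and 43 also held at least 2 of the ventricular light chain Myl2. Within the cells that did, 169 tdTom+ and 108 tdTom- cells, Nppa was at 232 and 1254 CPM (-2.43), while Nkx2-5 (414 and 423 CPM) and Irx4, a ventricular homeobox gene (91.5 and 98.2 CPM), were near level. Other genes were lower in these cells as well, with log2 folds of -0.94 for Acta1, -0.74 for Myh7, -0.70 for Myl3, -0.54 for Ttn, -1.51 for Nppb, -1.70 for Osr1 and -1.32 for Nr2f1. Higher in them were Sfrp5 (1.33), Barx1 (1.23), Foxf1 (1.21), Isl1 (0.998) and Has2 (0.56). Osr1 (17 and 29 UMIs), Nr2f1 (19 and 25) and Foxf1 (44 and 10) were under 100 UMIs in these cells. Nppb, the gene of B-type natriuretic peptide, lies beside Nppa on chromosome 4 and was lower too, with 134 against 199 UMIs (18.5 and 48.3 CPM, -1.38, -1.71 to -1.06). Against the 84 tdTom- cells with Y-linked and no Xist UMIs the fold of Nppb was -0.72 and no longer past 2-fold, while that of Nppa was -2.34. In the other non-blood cells Nppa was at 0.267 and 0.402 CPM, and its log2 fold there was higher by 1.68 (interval of the difference in cardiomyocytes minus other cells -2.31 to -1.04).

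Nppa spans chromosome 4 from 148000722 to 148002079 on the plus strand (GRCm38), and Nppb 147985788 to 147987205. The 250 bases before the RefSeq start of Nppa, chr4:148000472-148000721 of GRCm38.p6 on the plus strand, are shown because this peptide gene had the largest difference among the cardiac genes. Capitals mark GATA, the core letters read by GATA factors, and AAGTG, the core letters read by Nkx2-5, on either strand (TATC and CACTT on the other one).
Nppa: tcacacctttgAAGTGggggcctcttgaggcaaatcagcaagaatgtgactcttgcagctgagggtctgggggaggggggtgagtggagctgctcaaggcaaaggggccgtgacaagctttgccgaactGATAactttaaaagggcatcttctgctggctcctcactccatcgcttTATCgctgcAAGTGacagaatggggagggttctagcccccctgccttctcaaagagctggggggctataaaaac
It holds 2 matches to each motif, which do not overlap. Among RefSeq promoter windows of this length, 32851 in all, 53.6% hold a GATA match and 40.7% an AAGTG match, so such matches are common. The Nppb window, which runs into an exon that GENCODE annotates and is not printed, holds 2 GATA and 0 AAGTG matches.

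Barx1, a homeobox gene, had the largest excess in tdTom+ among the called genes outside the imprinted genes and Erdr1. It had 500 UMIs in tdTom+ and 100 in tdTom- (69.1 and 24.3 CPM, 1.51, 1.196 to 1.83). It was seen in 69 of 404 and 29 of 254 cells, and the 10 richest cells held 47.8% and 67% of its UMIs. Without those cells the log2 fold was 2.16 (1.63 to 2.73). Its level was 5.03 and 1.64 CPM in the low group, 98.6 and 38.4 CPM in the middle group and 112 and 29.9 CPM in the high group. Of the 54 tdTom+ cells with at least 2 Barx1 UMIs 43 also held at least 2 of Myl2 and 1 held at least 2 of Isl1. In tdTom- these numbers were 17 and 1 of 19. After thinning, 10.3% of tdTom+ (7.49% to 13.7%) and 7.29% of tdTom- cells (4.38% to 11.3%) held it. These intervals overlap, whereas the median among cells with at least 2 UMIs was 6 against 4 UMIs. In the other non-blood cells Barx1 was at 2.42 and 2.21 CPM, and the log2 fold in cardiomyocytes exceeded that in these cells by 1.37 (0.98 to 1.76). Barx1 lies on chromosome 13 at 48662998 to 48666507.

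Genes of the inflow side were mostly lower in tdTom+. Of the 12 measured genes of this list 8 had an interval below 0 and 0 above it, with 2 called lower and a median log2 fold of -0.43, while of all 7460 genes 14.8% had an interval below 0 and 0.523% were called lower. In the low group 7 of the 12 intervals were below 0, in the middle group 6 and in the high group 1. Markers of other cell types were lower in the low group of tdTom+ too. There the neural list summed to 43.7 CPM against 113 CPM in tdTom-, the endoderm list to 45.6 against 123 CPM, the somite list to 17.01 against 48.4 CPM and the proepicardial list to 22.0 against 47.6 CPM, and their part in the inflow result was not tested. Nr2f1, a nuclear receptor of atrial cells, had 158 against 192 UMIs (21.8 and 46.6 CPM, -1.09, -1.41 to -0.78) over all cells but -0.65 against the 84 tdTom- cells with Y-linked and no Xist UMIs. Osr1, a factor of posterior second heart field cells, had 49 against 81 UMIs (6.77 and 19.7 CPM, -1.54, -2.08 to -1.01). Nr2f2, the relative that sets atrial identity, was at 34.3 against 50.01 CPM (-0.55, -0.82 to -0.27), and the inflow ligand Wnt2 at 237 against 321 CPM (-0.44, -0.54 to -0.33). The difference in Wnt2 lay in the low and middle groups. There it was at 243 against 425 CPM and at 233 against 320 CPM, but in the high group at 237 against 243 CPM. Nr2f1 is also made outside the heart: after thinning it was in 7.54% of tdTom+ and 16.6% of tdTom- cardiomyocytes and in 12.6% and 16.4% of cells with neural markers, and since those cells can make Nr2f1 themselves, that share is no measure of free RNA. Osr1 had a log2 fold of 0.01 in the other non-blood cells, and the difference of the folds was -1.54 (-2.05 to -1.03). Its level there, 32.1 and 31.9 CPM, was above that in cardiomyocytes, and after thinning it was in 3.02% of tdTom+ (1.57% to 5.21%) and 6.07% of tdTom- cardiomyocytes (3.44% to 9.82%) against 2.48% and 2.33% of cells with neural markers.

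Cells with at least 2 UMIs of Nr2f2 numbered 52 (12.9%) in tdTom+ and 47 (18.5%) in tdTom-, and those with at least 2 of Isl1 122 (30.2%) and 56 (22.0%). Cells with at least 2 of Myl2 stood at 41.8% and 42.5%. After thinning, Nr2f2 was in 12.1% of tdTom+ (9.03% to 15.7%) and 15.4% of tdTom- cardiomyocytes (11.1% to 20.5%), against 8.94% and 11.5% of cells with neural markers, and Isl1 in 23.9% (19.8% to 28.4%) and 19.03% (14.3% to 24.5%), against 5.94% and 4.96%. The intervals of the fractions overlap for both genes. Myl2 and Nr2f2 cells hardly overlapped, with 2 shared cells in each fraction. Against the cells with 0 Nr2f2 UMIs, Nr2f2 cells had more Angpt1, an angiopoietin (194 against 64.5 CPM in tdTom+ and 218 against 72.0 CPM in tdTom-), and more Tbx5 (162 against 74.4 and 138 against 82.6 CPM). Against the cells with 0 Isl1 UMIs, Isl1 cells had less Myl2 (124 against 639 and 56.5 against 804 CPM). The Isl1 cells of the fractions were unlike in several genes. Fgf8, a growth factor of the second heart field, stood at 197 CPM in the tdTom+ and 75.7 CPM in the tdTom- Isl1 cells (1.38, lower bound 1.02), Tdgf1, a Nodal co-receptor of the outflow tract, at 97.3 and 34.3 CPM (1.503, lower bound 0.98), and Has2, the synthase of hyaluronan in cardiac jelly, at 47.0 and 14.1 CPM (1.73, lower bound 0.92). Myh7 was at 293 and 153 CPM (0.93, 0.67 to 1.197), although it was lower over all cells. Hand1 was the reverse, at 28.1 and 83.8 CPM (-1.58), as were Osr1 at 9.68 and 36.3 CPM and Wnt2 at 210 and 387 CPM. Nppa, lower in tdTom+ over all cells, had 23 and 3 UMIs in the Isl1 cells (1.81, 0.08 to 4.19). In the cells with 0 Isl1 UMIs the log2 folds had the other sign for Fgf8 (-0.51, -0.76 to -0.27), Tdgf1 (-0.67, -0.91 to -0.42), Hand1 (0.35, 0.15 to 0.56) and Myh7 (-0.71, -0.79 to -0.62), whereas Has2 was higher in these too (0.54, 0.22 to 0.86). The 20 tdTom+ and 19 tdTom- cells that held at least 2 of both Nr2f2 and Isl1 made up 20 of 122 and 19 of 56 Isl1 cells. Those with at least 2 of both Myl2 and Isl1 made up 25 of 122 and 7 of 56. The part of this make-up in the differences between the Isl1 cells was not tested.

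Ventricle-side, canal and progenitor genes showed no common direction. Of the 9 measured ventricle-side genes 5 had an interval below 0 and 2 above it, with Nppb called lower (over all genes 14.8% were below, 11.9% above and 0.523% called lower). Irx3 was at 54.8 against 41.0 CPM (0.42, 0.16 to 0.69) and Irx4 at 50.4 against 48.6 CPM. Of the 9 canal and outflow genes 2 lay on each side. Tbx2 and Tbx3, repressors of the chamber program, had log2 folds of -0.24 (-0.58 to 0.10) and 0.03 (-0.36 to 0.43). Of the 8 progenitor genes 4 lay below and 2 above 0. Isl1 was at 79.1 against 60.4 CPM (0.39, 0.17 to 0.61), Fgf8 at 107 against 91.3 CPM (0.23, 0.05 to 0.41) and Hoxb1, a posterior second heart field gene, at 12.3 against 20.9 CPM (-0.76, -1.21 to -0.32). Among the secreted factors, Has2 (55.0 against 34.0 CPM, 0.69, 0.41 to 0.98) and Hapln1, a linker protein of cardiac jelly (65.3 against 45.4 CPM, 0.53, 0.28 to 0.78), were higher in tdTom+. Vcan, the gene of versican, was lower (273 against 324 CPM, -0.24, -0.35 to -0.14). Bmp4 was at 50.7 against 64.3 CPM (-0.34, -0.58 to -0.11).

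Cell cycle genes were slightly higher in tdTom+. Of 21 measured, 10 had an interval above 0 and 4 below, while 11.9% of all genes had one above. Rrm2, a subunit of ribonucleotide reductase, was at 287 against 204 CPM (0.49, 0.37 to 0.61), and Ccnb1, the mitotic cyclin, at 201 against 162 CPM (0.31, 0.18 to 0.44). Ccna2 was lower, at 97.4 against 155 CPM (-0.67, -0.82 to -0.51), and lies in the chromosome 3 stretch described below. After thinning, 77.6% of tdTom+ cardiomyocytes (73.2% to 81.6%) and 61.1% of tdTom- cardiomyocytes (54.7% to 67.2%) held Top2a, a topoisomerase of dividing cells, against 80.9% and 78.4% of cells with neural markers. Mki67 did not follow, with 44.5% and 42.5%. The cell cycle inhibitor Cdkn1c was lowest of the list by far.

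Cdkn1c, an imprinted inhibitor of cyclin-dependent kinases expressed from the maternal allele, had 121 UMIs in tdTom+ and 12192 in tdTom- cardiomyocytes (16.7 and 2960 CPM, -7.47, -7.74 to -7.21). It was seen in 21 of 404 and 252 of 254 cells, and 2 tdTom+ cells held 96 of the 121 UMIs. In tdTom- it went from 1387 CPM in the low to 4086 CPM in the high group. Other maternally expressed genes, Grb10 (45 against 1822 UMIs, -6.15), Phlda2 (117 against 1371, -4.36) and Igf2r (181 against 1029, -3.32), were lower as well. H19, a maternally expressed RNA, was not, with 3733 against 1706 UMIs (0.32, 0.23 to 0.40). The 3 called higher on the list, Impact (934 against 183 UMIs, 1.54), Peg10 (772 against 168, 1.39) and Mest (14815 against 4067, 1.05), are expressed from the paternal allele. So is Igf2, which was lower (2161 against 2353 UMIs, -0.94). These folds were not special to heart cells: in the other non-blood cells they were -6.07, -5.54, -2.65 and -2.34 for Cdkn1c, Grb10, Phlda2 and Igf2r and 1.44, 1.25 and 0.99 for Impact, Peg10 and Mest. For Cdkn1c the cardiomyocyte fold was lower than the other by 1.40 (interval of the difference -1.67 to -1.12). For Phlda2 the difference was -1.71 (-1.98 to -1.44). The part in these differences of the mix of tissues among the other cells was not tested.

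A run of genes on chromosome 3 was lower in tdTom+ throughout, which was seen only after the values were known. All 26 measured genes from Zmat3 at 32334792 to Sclt1, which ends at 41742514, had an interval below 0, with log2 folds from -1.54 to -0.66 and a median of -1.01, and 14 were called. Of all 7460 genes 14.8% had an interval below 0 and 0.523% were called lower. Elsewhere 2.09% of 7430 placed genes were as low as the highest of the run. Summed over the run the log2 fold was -1.01 (-1.06 to -0.97). The nearest 17 measured genes, 7 before and 10 after it, ranged from -0.64 to 0.54 with a median of -0.07. No gene was measured between 41742514 and 51224447, so where the lower stretch ends on that side is not known. The other non-blood cells had the same run at a median of -0.94. Among 403 windows of 5 Mb with at least 6 genes, the lowest median beyond those that touch the run was -0.38. Named genes of the run include Ndufb5, a subunit of respiratory complex I (239 against 525 CPM, -1.14), Anxa5, a calcium-dependent phospholipid-binding protein (48.9 against 126 CPM, -1.36), and Fxr1, an RNA-binding protein of muscle (-1.03).

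**Figure D4:**
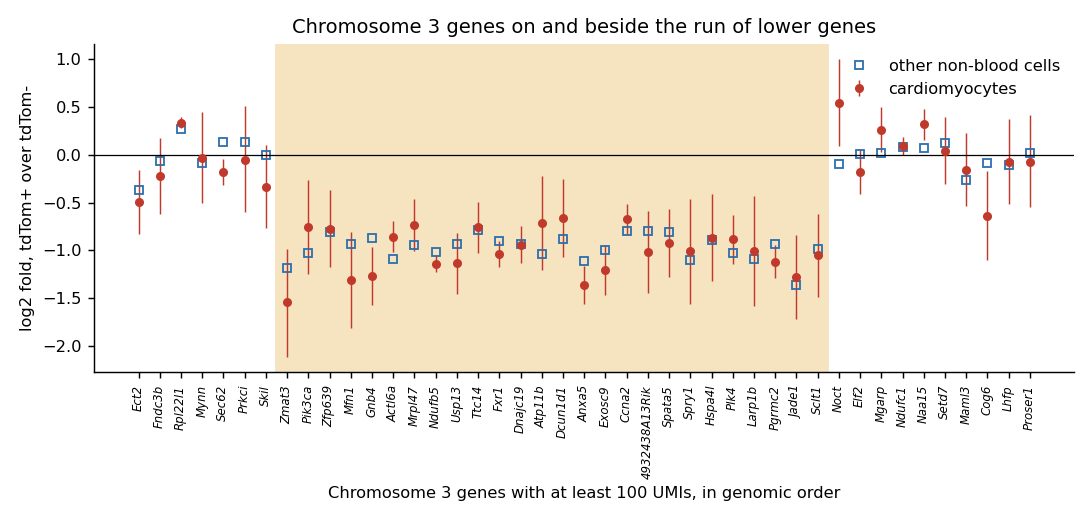
Log2 fold of tdTom+ over tdTom- (y axis) for chromosome 3 genes with at least 100 UMIs in genomic order (x axis), with cardiomyocytes as red points with 95% counting intervals and other non-blood cells as blue squares. The 26 genes on the shaded run lie between -1.54 and -0.66 in cardiomyocytes, and the nearest measured genes on either side scatter around 0. The x axis shows order and not distance, and no gene was measured between 41742514 and 51224447.

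The called genes were set beside the same genes in the other non-blood cells. Of the 39 lower genes 30 were lower there by at least 0.5 on the log2 scale, 15 of them at least 2-fold, and of the 16 higher genes 10 were higher by 0.5, 5 of them at least 2-fold. The fold differed from that of the other cells by at least 1, with an interval that excluded 0, in 6 of the lower and 5 of the higher genes. Among genes whose difference from the other cells had an interval that excluded 0, the largest positive differences were those of Fabp3, a fatty acid binding protein (-0.40 in cardiomyocytes, -3.64 elsewhere), Pgm1 (1.43, and close to 0 elsewhere), Barx1, Brip1 (1.19 and -0.16) and Lhx1 (1.01 and -0.18). The most negative were those of Myom1, an M band protein (-0.61 and 2.08), Arhgdib (-0.33 and 1.53), Phlda2, Cbfa2t3, a blood co-repressor (-0.23 and 1.48), and Nppa. In the other cells Arhgdib was at 36.5 and 12.7 CPM and Cbfa2t3 at 24.6 and 8.83 CPM. The part of blood cells with little globin in these values was not tested. Nor was that of the mix of tissues among the other cells, here or for the differences above. The other called genes among the 10 furthest in each direction, with Xist, Ddx3y and Eif2s3y left out of the ranking, were Erdr1 (1.73), Nespas (1.33), Fam212a (1.24), Ptpre (1.07) and Hist1h2ac (1.06) on the higher side, and the globins Hba-x (-2.98) and Hbb-y (-2.77), which the rule used, Akr1e1 (-2.17) and Zmat3 (-1.54) on the lower side. Nespas is an antisense transcript and Hist1h2ac a member of a histone family with near-identical copies, so their counts are uncertain. Without the cells that Scrublet marked the log2 fold of Fam212a was 0.19, and without the cells holding blood or endothelial UMIs 0.10.

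**Figure D5:**
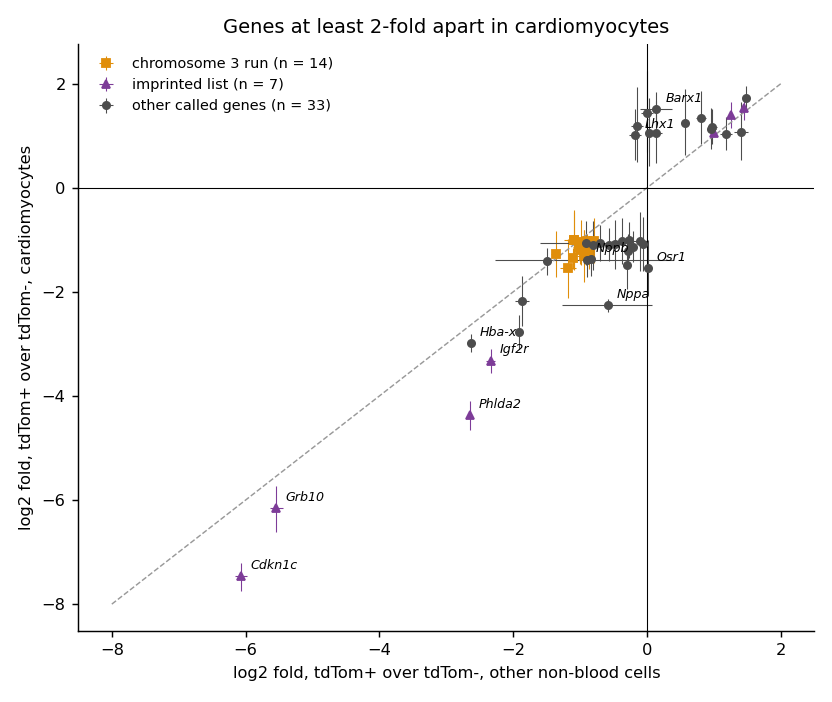
Log2 fold of tdTom+ over tdTom- in other non-blood cells (x axis) against that in cardiomyocytes (y axis) for the 54 called genes other than Xist, with 95% counting intervals and the line of equal folds dashed. The 7 genes of the imprinted list, which need not hold every imprinted gene, and the 14 chromosome 3 genes lie along the line or, as Cdkn1c and Phlda2, below it. Osr1, Barx1 and Lhx1 lie near 0 on the x axis and away from it on the y axis, and Nppa has a wide interval on the x axis.

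The unspliced layer, transcripts that still carry intron sequence, held 13.6% of UMIs in tdTom+ and 14.6% in tdTom- cardiomyocytes. Slc8a1, the sodium-calcium exchanger, was unspliced at 95.4% and 95.3%, and Ryr2, the calcium release channel, at 90.9% and 90.8%. Ttn differed, with 19.96% (19.5% to 20.5%) unspliced in tdTom+ and 15.6% (15.1% to 16.1%) in tdTom-. Its unspliced UMIs had a log2 fold of 0.04 (-0.02 to 0.11), beside -0.51 for the spliced ones. The rule gene Myl7 was unspliced at 0.569% and 0.430%. Unspliced folds of Tpm1 (-0.02), Tnnc1 (-0.004) and Nebl (-0.04) had intervals that held 0. Those of Myh6 (-0.14), Myh7 (-0.47) and Myl2 (-0.42) lay below 0. Ankrd1 was the reverse of Ttn, with 7.26% (6.74% to 7.80%) and 11.2% (10.4% to 12.0%). Igf2r was 82.3% unspliced in tdTom+ (79.8% to 84.6%) and 29.9% in tdTom- (27.5% to 32.3%), its unspliced fold being 0.25 against -3.32 for spliced UMIs. Nppa was lower in both layers, with 21 against 64 unspliced UMIs (-2.30, -3.09 to -1.57).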

How the data were processed

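Droplet-based scRNA-Seq (10x v3 chemistry) gave 1 library per fraction. According to the labels and methods, the authors aligned reads with Cell Ranger 3.0.2 to mm10 (GRCm38), called cells with emptyDrops, dropped barcodes of low complexity, split molecules into layers with velocyto, and deposited whole UMI counts, not normalised, in a spliced and an unspliced table of 29453 genes. Mitochondrial percent per cell was deposited by the authors and used as given. The methods also name a step that identified doublets. Cell filters and cell types of the authors were not rerun. The paper reports fewer cells per fraction than were used here, so cells that its analysis left out can be among them. Of 18239 cells in the quality table, 6 have no counts.

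Here, UMIs were summed over the cells of each fraction in Python 3.11.15 (numpy 2.4.6, scipy 1.17.1, pandas 2.3.3, scanpy 1.11.5 for Scrublet, matplotlib 3.10.9). A gene was called if its summed spliced UMIs reached 100, its fold 2 and its exact conditional interval excluded 0. Differences of log2 folds carry a Wald interval with 0.5 added to each count. Other non-blood cells are all non-members under the globin limit, so blood cells with little globin can be among them. They hold all other tissues, whose mix was not matched between the fractions. Its part in the folds of these cells, and in the differences from them, was not tested. Shares of cells with a UMI were read after thinning to 5000 UMIs, which left out 6 tdTom+ and 7 tdTom- cardiomyocytes, beside cells with at least 5 UMIs of 8 neural genes (1536 and 2417 cells, medians of 18109 and 16317 UMIs) as a measure of free RNA for genes that these do not make. Interval code was tested on simulated data. Positions come from GENCODE M21, and promoter sequence from RefSeq.

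The members, the 24 gene lists and the tests were chosen with earlier results of these data known. Named genes are the rule genes, Ttn, Myh6, Gata1, sex-linked genes, the 5 most abundant and any called gene of each list, the 10 called genes furthest in each direction and the 5 with the largest difference from other cells. Other genes of the lists and the chromosome 3 run were named after their values were seen. Rule limits, doublets, layers, depth, scaling, host sex and free RNA were varied.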

Additional observations from a re-analysis of the deposited data

Results flagged for a closer look

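Among the listed genes and those furthest apart, 5 had opposite directions in cardiomyocytes and in the other non-blood cells with log2 folds that differed by at least 1, each with intervals that excluded 0 in both. Genes with smaller opposite differences, such as Wnt2 and Bmp4, are not counted. The rule genes Myl7, Myl4, Tnnt2 and Actc1 were among these. Their log2 folds were -0.15, -0.24, -0.14 and -0.40 in cardiomyocytes and 0.39, 0.61, 0.41 and 0.49 in the other cells. The rule parted the cells on these genes, and its part in the values of Acta1, Tagln and Myom1 was not tested. With 1 library per fraction none of these differences was tested across samples. Acta1 had a log2 fold of -0.86 in cardiomyocytes and 0.70 in the other cells, Tagln of -0.48 and 0.55, and Myom1 of -0.61 and 2.08. The other 2 genes were higher in tdTom+ cardiomyocytes: Brip1, a DNA helicase, had 1.19 and -0.16, and Lhx1 had 1.01 and -0.18. Outside cardiomyocytes the levels of tdTom+ and tdTom- cells were 2.58 and 1.59 CPM for Acta1 and 0.145 and 0.0342 CPM (19 and 4 UMIs) for Myom1, so these levels are low.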

How the results depend on the processing

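No paired analysis was possible because each fraction was 1 library. The share of cardiomyocytes in tdTom+ moved to 5.12% with a limit of 0.15% on the rule genes and to 3.28% with 1%. That in tdTom- moved to 2.10% with 1%, so at this limit tdTom+ stayed above tdTom-. With spliced and unspliced UMIs together 59 genes were lower. Thinned cells gave 8 higher genes. Against tdTom- cells with Y-linked and no Xist UMIs (84 cells) 42 genes were higher, 10 of them among the 16, and Ddx3y and Eif2s3y turned to -0.26 and -0.29, since cells without Y-linked UMIs were removed from 1 side. Subtracting the level of cells with neural markers moved the count of genes at least 2-fold higher in tdTom+ cardiomyocytes to 537 and that of genes at least 2-fold lower in tdTom+ cardiomyocytes to 777, and Ddx3y, Eif2s3y, Erdr1, Pgm1, Nespas, Brip1 and Hist1h2ac went to -0.81 each, because genes that both cell types express are left at the floor of 3 counts in both fractions. The lower genes Xist, Hba-x, Hbb-y, Hba-a1, Akr1e1 and Zmat3 also went to -0.81 under the subtraction and were no longer 2-fold lower. A minimum of 30 UMIs gave 72 higher and 167 lower genes and no minimum 125 and 319. Over all alternatives the log2 fold of Nppa ranged from -2.84 to -1.13, that of Nppb from -1.47 to -0.72, that of Osr1 from -4.70 to -1.11, that of Nr2f1 from -2.84 to -0.65, that of Barx1 from 1.02 to 2.16 and that of Lhx1 from 0.86 to 1.75. Among sarcomere genes outside the rule, Ttn (-0.54 to -0.32) and Myh7 (-0.60 to -0.06) stayed below 0. Others changed sign, such as Myh6 (-0.30 to 0.47), Myl2 (-0.44 to 0.42), Ankrd1 (-0.23 to 0.58) and Tnnc1 (-0.28 to 0.27). Of the genes called higher, those that fell below 2-fold under at least 1 alternative other than the subtraction include Fam212a (lowest 0.10), Ptpre (0.77), Brip1 (0.69), Pgm1 (0.77), Hist1h2ac (0.74), Lhx1, Mest (0.92) and Peg10 (0.95). The lower end for Nppa and the upper end for Barx1 leave out the 10 richest cells of each fraction. The lower ends for Osr1 and Nr2f1 come from the subtraction, which left tdTom+ at the floor of 3 counts. In tdTom+ the level of cells with neural markers was above that of cardiomyocytes for both. It was 8.96 against 6.77 CPM for Osr1 and 35.7 against 21.8 CPM for Nr2f1, so these ends measure no fold. The upper end for Nppa is the mean of the folds within the low, middle and high groups, and for Nppb and Nr2f1 the tdTom- cells with Y-linked and no Xist UMIs. Where the counts stayed within 1.5 times the reported ones, 12 to 19 genes were higher and 27 to 53 lower. This range was cut by the counts themselves, so it is no measure of their stability. The cause of the remaining moves was not tested. The alternatives without cells holding blood or endothelial UMIs and without the 10 richest cells were chosen after seeing the data. Depth limits genes under 100 UMIs, which were not called.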
